A study of Drosophila melanogaster with 96 samples.

Results

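The cytochrome P450 genes of Drosophila melanogaster were taken from the counts as the genes whose FlyBase symbol is Cyp followed by a family number, a subfamily letter and a gene number. The rule found 84 genes of the 17370 in the files, of which 82 code for protein and 2, Cyp6a15Psi and Cyp6t2Psi, are pseudogenes. They belong to 20 families in 4 clans. The CYP3 clan holds 39 of them (24 in the Cyp6 family), the CYP4 clan 32 (22 in the Cyp4 family), the mitochondrial clan 9 and the CYP2 clan 4. P450 genes known by another symbol, such as the ecdysteroid synthesis genes sad and shd, fall outside the rule and were followed as a separate list.

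P450 enzymes are haem proteins that insert an oxygen atom into small organic molecules with electrons passed on by a reductase. In insects some make or break down hormones, pheromones and waxes, and others, many of them of the CYP3 and CYP4 clans, attack plant compounds and insecticides in the gut, the Malpighian tubules and the fat body. The mitochondrial P450s take their electrons from a ferredoxin, and the microsomal ones from Cpr, the NADPH cytochrome P450 reductase.

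RNA was counted in 96 whole adult flies of the laboratory strain w1118, each a virgin of 3 days with a library of its own. Each fly had a plate well to itself, ate a chemically defined food for 24 h and was starved on buffered saline for 6 h. The flies were then fed again, on that food coloured with a dye, and taken after 0, 2, 4 or 8 h. The solvent dimethyl sulfoxide (DMSO), in which drugs are often given, made up 0.4, 0.2 or 0.1% of the food by volume or was left out. The combinations of sex, food and time made 32 groups with 3 flies in each, and a fly at 0 h had fasted and had eaten no DMSO whatever its label. Each time had a plate of its own, so time cannot be told apart from plate or clock time. In a whole fly, fewer cells of a type and less RNA per cell cannot be told apart.

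A library held 958896 to 9215796 gene counts (median 4777950.5), and the P450 genes took between 0.136 and 1.79% of them (median 0.708%). Sex markers separated the libraries except for 1. The summed level of 12 male transcripts lay between 13.4 and 62.0 CPM (counts relative to the library total, scaled by TMM) in 47 female libraries and between 5439 and 16596 in the 48 male ones, but was 6493 in the library labelled female, 8 h, 0.4% DMSO, replicate 3. The library labelled male, 4 h, 0.4% DMSO, replicate 1 was the shallowest. Results were also computed without these 2, without the fasted female on food without DMSO, replicate 1, which stood apart in many P450 genes, and without a male library whose title gives 0 h and whose other label gives 8 h.

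One gene dominated the P450 transcripts. Cyp4g1, which encodes the enzyme that completes cuticular hydrocarbons in the oenocytes, made up a median of 65.4% of the P450 CPM in females (3.35 to 88.1% over 48 flies) and 70.1% in males (5.96 to 87.3%). Per kilobase of exon its median level was 1678 CPM in females and 2452 in males. Cyp6d5 came next in both sexes at 102 and 143 CPM per kb. In females Cyp6a19 (76.6 CPM per kb), Cyp6g1, known for DDT resistance (75.3), Cyp28d1, linked to the handling of nicotine (65.1), and Cyp12a4, a mitochondrial P450 known for lufenuron resistance (60.9), followed. In males the next were Cyp6g1 (138 CPM per kb), Cyp313a1 (80.2), Cyp312a1 (79.4) and Cyp12a4 (70.4). The medians of these next genes lay close together and within the spread of the flies, so their order is not firm.

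**Figure D1:**
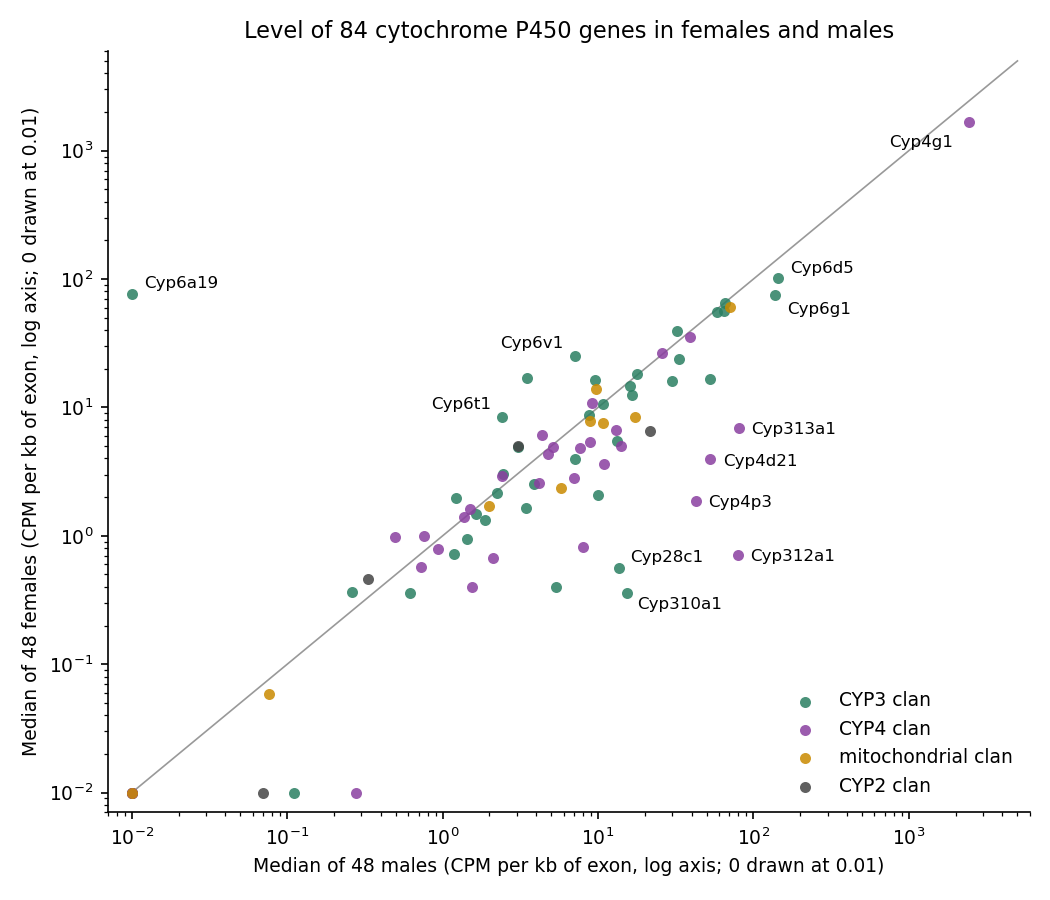
Each point is 1 of 84 P450 genes, placed by its median CPM per kilobase of exon over 48 males (x axis) and 48 females (y axis), both on log axes with a median of 0 drawn at 0.01; colours give the clan and the line marks equal levels. Cyp4g1 lies far above the others at 1678 CPM per kb in females and 2452 in males. Cyp6a19 lies at a male median of 0 on the left edge but high in females, unlike the other members drawn there. Cyp312a1, Cyp310a1, Cyp28c1, Cyp4p3, Cyp309a2, Cyp4d21 and Cyp313a1 lie far below the line. Most males were on another sequencing run than the females.

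Most P450 genes were present at low levels. By median CPM, 6 members reached 100 in females and 8 in males, 29 and 36 lay between 10 and 100, 34 and 28 between 1 and 10, and 15 and 12 under 1. After the filter on low counts 76 members were tested in females and 74 in males, where Cyp6a19 and Cyp304a1 dropped out. In none of the fits were Cyp12d1-d, Cyp303a1 (needed for sensory bristles), Cyp313a2, Cyp313a5, Cyp316a1, Cyp4p2 or either pseudogene tested. Cyp12d1-d had 0 counts in all 96 libraries beside its near-identical neighbour Cyp12d1-p, so the split of reads between these 2 genes is uncertain. By the Ensembl annotation of BDGP6.54, 43 members lie in 16 runs of neighbouring P450 genes. The longest run, on 2R, holds Cyp6a22, Cyp6a17, Cyp6a23, Cyp6a19, Cyp6a9 and Cyp6a20.

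Flies of one group differed in many P450 transcripts. The median biological coefficient of variation of the members tested was 0.516 in females, against 0.298 over all genes tested, and 0.262 against 0.194 in males. Cyp4d1 had the highest (1.26 in females and 1.098 in males), and Cyp6u1 the lowest in females (0.167). Single flies stood out. The fasted female on food without DMSO, replicate 1, was the highest of 48 females for 25 of 83 members with a count, where the median library was highest for 1. Cyp6d2 measured 35.2 CPM in it and at most 2.93 in the other 47 females. Cyp309a2 measured 59.8 CPM there against at most 5.49 elsewhere, its neighbour Cyp309a1 264 against 55.7, Cyp12c1 376 against 78.8 and Cyp12d1-p 10.5 against 2.404. Among males the shallowest library was highest for 14 of 83 members, led by Cyp6g2 with 40.5 CPM against at most 12.1 in the other 47.

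The first comparison set 6 females against 6 males on food without DMSO, 3 of each taken at 0 h and 3 at 2 h, fitted as 4 groups of sex and time. Cyp312a1 stood at a median of 293 CPM in males and 2.88 in females, and Cyp4p3, Cyp28c1, Cyp310a1 and Cyp4d21 were also far higher in males, while Cyp6a19 was at or near 0 in the males. Under edgeR's quasi-likelihood test, with p-values adjusted by Benjamini-Hochberg and a limit of 0.05, 34 of 72 members tested differed (47.2%, against 65.9% of all genes tested). Of them 11 were higher in females (15.3%, against 26.1% of all genes) and 23 in males (31.9%, against 39.8%). Each of these shares lies below that of all genes. The 34 include Cyp6a19, Cyp310a1, Cyp28c1 and Cyp4c3, which passed the filter on low counts through 1 sex, where they are high. The clan shares below count them too, and the shares of all genes were taken under the same filter. The median log2 difference of female over male was -0.12 for the members and -0.19 for all genes. Within the clans, 13 of 27 CYP4 members were male-higher (48.1%) and 1 female-higher, and of 36 CYP3 members 7 were male-higher (19.4%) and 8 female-higher (22.2%). Differences between these shares and those of all genes were not tested. All 12 libraries came from the same sequencing run.

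Among the male-higher genes, Cyp312a1 had the largest difference. It measured 2.29, 2.88 and 4.79 CPM as the lowest, median and highest of the 6 females and 252, 293 and 451 of the 6 males (log2 -6.69, SE 0.22, edgeR adjusted p = 3.51e-11). The groups were far apart. Cyp310a1 ran from 0.198 to 1.19 CPM in females (median 0.560) and from 18.1 to 31.3 in males (median 22.4; log2 -5.28, SE 0.33). Cyp4p3 ran from 1.83 to 2.85 CPM in females (median 2.37) and from 57.7 to 88.8 in males (median 63.1; log2 -4.86, SE 0.18). Cyp28c1 measured at most 1.75 CPM in the females and at least 17.1 in the males (log2 -4.68, SE 0.27). Cyp4d21, also known as sxe1, a sex-regulated gene of the head fat body with a part in male courtship, ran from 3.20 to 9.90 CPM in females (median 5.26) and from 65.0 to 105 in males (median 84.4; log2 -3.91, SE 0.17). Males also had more Cyp313a1 (log2 -2.99, SE 0.23), Cyp4ad1 (-2.44, SE 0.27), Cyp4c3 (-1.96, SE 0.34), Cyp28d2 (-1.84, SE 0.32) and Cyp305a1 (-1.62, SE 0.20). In each of these 10 genes every male lay above every female. Cyp310a1, Cyp28c1 and Cyp4c3 reached at most 1.19, 1.75 and 1.43 CPM in these females. They passed the filter on low counts in this fit through the males, where they are high. Their calls are therefore not used as support, and their log2 values rest on few female counts.

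Every male also lay above every female in Cyp6a8, a gene that many xenobiotics induce and that passed the filter in females alone as well. It ran from 19.8 to 46.1 CPM in females (median 28.1) and from 54.0 to 152 in males (median 74.9; log2 -1.56, SE 0.22, edgeR adjusted p = 2.00e-05). Cyp4g1 was higher in males with overlapping groups, 3305 to 6068 CPM in females (median 3996) and 5462 to 13799 in males (median 7214; log2 -1.02, SE 0.22, edgeR adjusted p = 0.00105). Of the 3 oenocyte markers found in the files, FASN2 was male-higher (log2 -1.21), Fad2, a desaturase of female oenocytes, was female-higher (log2 10.85) and Desat1 was not called (log2 0.25). Other male-higher members of known role were Cyp6a2 and Cyp6w1, both induced by xenobiotics, and Cyp4g15 of the nervous system, with log2 values of -0.96, -0.78 and -0.57.

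Cyp6a19 was the member with the clearest bias to females. It ran from 30.7 to 176 CPM in the 6 females (median 91.5), and the 6 males held 3 counts in all, with 4 of them at 0. The ratio of female to male counts, scaled by library size, was 870 (95% exact interval 297 to 4219, for counting error only). Cyp6a19 passed the filter on low counts through the females, where it is high, and not in the fit of males alone, so its call is not used as support. Over all foods and times the 48 females ran from 4.78 to 364 CPM and the 48 males from 0 to 4.05, so the sexes did not overlap. Most of these 48 males were on another sequencing run than the females. The exons of Cyp6a19 overlap on the opposite strand with those of its neighbour Cyp6a9. The libraries were stranded and the names of the deposited count files carry the word reverse, but the labels do not state the strand setting of the counting. Cyp6a9 was female-higher by much less, from 13.8 to 63.6 CPM in females (median 29.8) and from 7.49 to 33.2 in males (median 18.6; log2 0.73, SE 0.24, edgeR adjusted p = 0.0154). Cyp6a22, at the other end of that run of neighbours, was also female-higher without overlap (20.5 to 38.2 CPM against 7.22 to 11.1; log2 1.70, SE 0.18), whereas Cyp6a17, which affects temperature preference, Cyp6a23 and Cyp6a20, which affects aggression, were not called (log2 0.43, 0.33 and -0.13).

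Females further had more Cyp6t1 (log2 1.90, SE 0.31) and Cyp6v1 (1.42, SE 0.23), both without overlap. Cyp18a1, which inactivates ecdysteroids, ran from 13.2 to 21.7 CPM in females (median 15.7) and from 2.18 to 11.8 in males (median 7.94; log2 1.102, SE 0.26, edgeR adjusted p = 0.00183). The groups did not overlap. Cyp4ae1 was the female-higher gene of the CYP4 clan (log2 1.004, SE 0.24), and Cyp28d1 was female-higher with overlap (log2 0.73, SE 0.24). Cyp12c1 (log2 1.83, SE 0.51), Cyp9b1 (1.28, SE 0.48) and Cyp6d4 (1.24, SE 0.41) were called as well, and in all 3 the fasted female replicate 1 was the highest fly. Without it the log2 values were 0.80, 0.71 and 0.63, and the calls of Cyp12c1 and Cyp6d4 held while that of Cyp9b1 was lost. Cyp309a2 was not called, at a median of 0.566 CPM in females and 9.42 in males. Its males ran from 5.91 to 11.4 CPM, and that same female held 59.8. Replicates 2 and 3 of her group held 0.791 and 1.43 CPM, and the females at 2 h at most 0.341. In all, 19 members did not overlap between 6 females and 6 males, 5 higher in females and 14 in males, and all 19 were called. Among them are Cyp6a19, Cyp310a1, Cyp28c1 and Cyp4c3, which passed the filter through 1 sex. The 19 make up 26.4% of the members tested, against 44.1% of all genes (6.94 against 14.4% higher in females, 19.4 against 29.7% in males). Over 48 flies of each sex, Cyp28c1, Cyp312a1, Cyp4p3 and Cyp6a19 did not overlap, and without the library that held male transcripts Cyp305a1, Cyp313a1 and Cyp4d21 did not either. These are 4 and 7 of 76 members (5.26 and 9.21%), against 10.3 and 22.4% of all genes. All 48 females came from a single sequencing run and most of the 48 males from another. Sex therefore cannot be told apart from run in most of these flies, unlike in the 12 of the main comparison. Higher in females were 1.32% of the members in both cases, against 3.07 and 3.08% of all genes, and higher in males 3.95 and 7.89%, against 7.19 and 19.3%. Of the ecdysteroid synthesis genes, shd was male-higher (log2 -2.01), sad was not called (log2 -0.20) and the other 4 of 6 did not pass the filter. The level of shd ran from 0.320 to 1.54 CPM in females and from 1.31 to 5.19 in males, with overlap. It passed the filter through the males and not in the fit of females alone, so its call is not used as support. Of 6 electron partners, dare, the reductase of the mitochondrial chain, was female-higher (log2 0.83) and Cpr and Cyt-b5 male-higher (log2 -0.61 and -0.48).

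**Figure D2:**
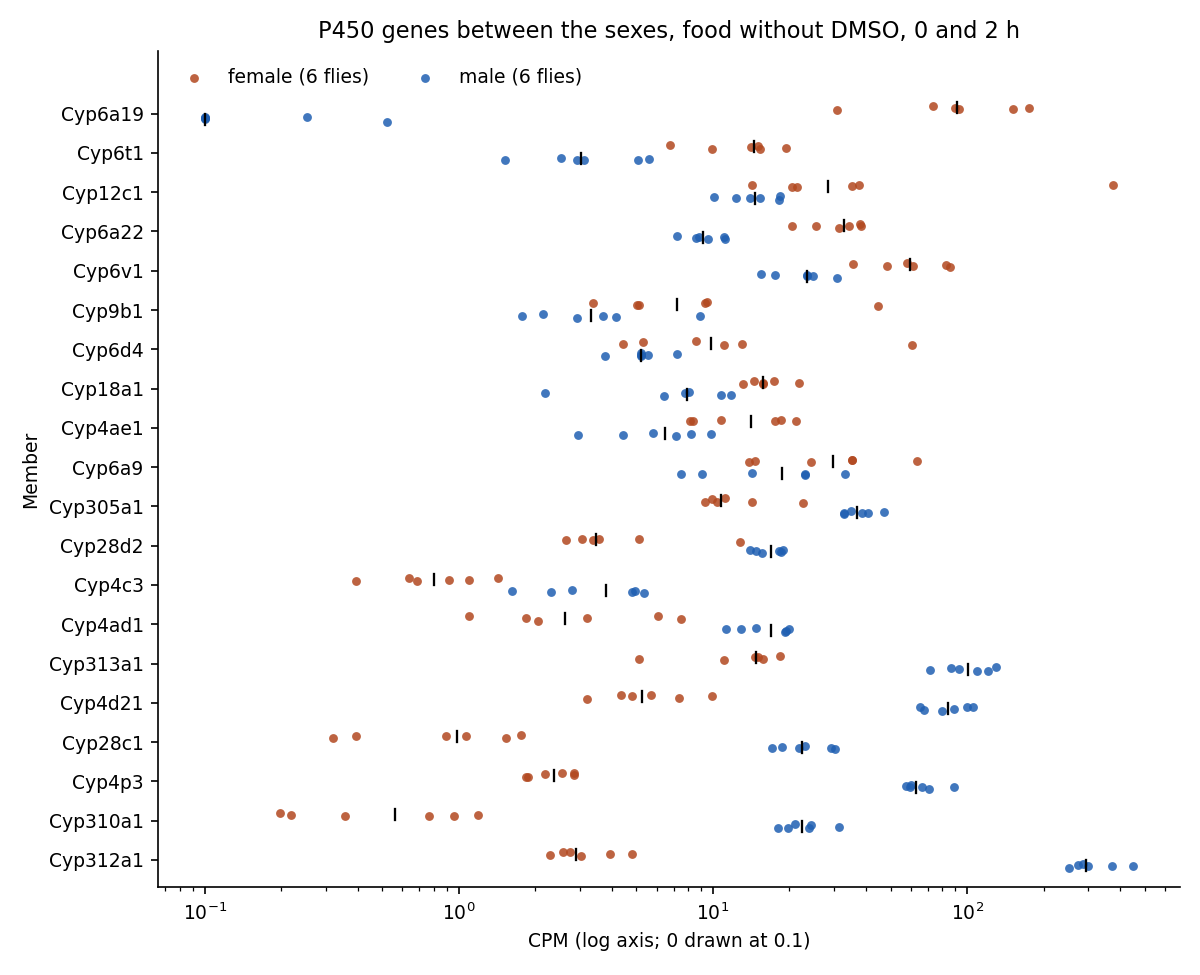
CPM on a log axis of the 20 members with the largest called differences between the sexes, 1 point per fly (6 females, 6 males, food without DMSO at 0 and 2 h) with the median as a bar and 0 drawn at 0.1. Cyp6a19 is at or near 0 in the males and at 30.7 to 176 CPM in the females, and the male-higher genes from Cyp312a1 up to Cyp305a1 separate fully.

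Refeeding was compared with fasting within each sex. Changes are in levels relative to the other genes of a library, not in RNA per fly, and the spike-in share was higher in every fasted library. Females were compared on all 4 foods, 12 flies against 12, and males on the DMSO foods alone, 9 against 9, whose libraries came from one run. The comparisons of a sex share its fasted flies. In females after 2 h, 10 of 76 members had changed (13.2%, against 13.6% of all genes), 2 higher (against 9.27% of all genes) and 8 lower (10.5%, against 4.37%). On the 3 foods with DMSO alone, those used for the males, 2 were higher and 1 lower, and without the doubted libraries 4 were higher and 4 lower. Cyp6a8 rose from 6.31, 17.04 and 26.9 CPM as the lowest, median and highest fasted female to 11.7, 48.0 and 70.2 (log2 1.497, SE 0.30, edgeR adjusted p = 0.00494), and Cyp4d21 rose by log2 1.07 (SE 0.37). Cyp309a2 fell from 0.500 to 59.8 CPM (median 1.46) to 0 to 0.748 (median 0.110; log2 -3.74, SE 0.79) and its neighbour Cyp309a1 by 1.17 on the log2 scale (SE 0.36). Cyp4d1 fell from 0.570 to 55.3 CPM (median 16.03) to 0 to 20.2 (median 0.534; log2 -3.58, SE 0.84, edgeR adjusted p = 0.00780). In both genes the median of the fed flies lay below the lowest fasted fly. The mitochondrial P450s Cyp12d1-p (log2 -2.83, SE 0.83), Cyp12c1 (-1.21, SE 0.41) and Cyp12a4 (-0.88, SE 0.22) also fell, as did Cyp4ac3 (log2 -1.12, SE 0.33) and Cyp6t1 (-0.50, SE 0.17). Cyp12d1-p had a median of only 0.265 CPM over all 48 females, where 3 counts stand for 0.326 to 1.15 CPM. Under other settings or without 1 library, the call of Cyp6t1 held in 7 fits and was lost in 25. That of Cyp4d21 held in 14 and was lost in 18, and that of Cyp4ac3 held in 30 and was lost in 2.

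Without the fasted female replicate 1 on food without DMSO, 5 members were called in females at 2 h. They were Cyp6a8, Cyp309a2, Cyp4d1, Cyp12a4 and Cyp4ac3, with Cyp309a2 at log2 -2.69, while Cyp309a1 (-0.82), Cyp12c1 (-0.73) and Cyp12d1-p (-2.08) no longer passed. In the same comparison 4 of 7 midgut markers fell, the maltases Mal-A3 and Mal-A4 and the mannosidases LManV and LManVI, while the summed level of the 7 ran from 381 to 8686 CPM in fasted and from 2184 to 6397 in fed females. Of 6 electron partners Cyt-b5-r (log2 -1.03) and Fdx2 (log2 -0.35) fell. The part of these in the P450 result was not tested.

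Males after 2 h had 5 of 74 members lower and none higher (6.76%, against 1.4% of all genes, of which 0.767% were lower). Cyp4e3 fell most, from 2.12 to 102 CPM in fasted males (median 13.9) to 0.914 to 15.7 (median 1.78; log2 -3.59, SE 0.61, edgeR adjusted p = 0.00116). The males on food without DMSO, on another sequencing run and outside this test, went the other way, with 4.29, 4.92 and 1.63 CPM at 0 h and 28.03, 7.76 and 16.4 at 2 h, where every fed fly lay above every fasted one. Over all 4 foods the log2 change was -2.12 (edgeR adjusted p = 0.0178). The 3 highest fasted males, at 102, 84.1 and 88.6 CPM, were replicate 1 on each food labelled with DMSO, which had not yet been eaten. Replicates 2 and 3 on these foods held at most 33.2 CPM at 0 h, so much of the fall rests on replicate 1. Whether these 3 flies share a cause was not tested. Cyp6a9 fell from 21.2 to 49.8 CPM (median 33.2) to 7.90 to 31.8 (median 16.1; log2 -1.01, SE 0.18), and Cyp6d5, next to Cyp4g1 per kilobase of exon, from 244 to 467 CPM (median 329) to 132 to 256 (median 202; log2 -0.88, SE 0.19). These 3 passed whichever single library was left out. Cyp4ac3 (log2 -0.95, SE 0.24) and Cyp12a4 (-0.76, SE 0.20) also fell, as they had in the females, which are separate flies, but both were called in 5 of the 18 fits that left out a male library. The count was 3 without any one of replicates 2 or 3 on 0.1%, 1 on 0.2%, and 2 or 3 on 0.4% at 0 h, or replicates 2 or 3 on 0.2% and 1 or 2 on 0.4% at 2 h. Of the 74 members tested in both sexes, 56, 50 and 41 had log2 changes of the same sign at 2, 4 and 8 h (75.7, 67.6 and 55.4%), against 65, 61.3 and 56.6% of the 9706 genes tested in both.

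After 4 h no member was called in females (0% of 76 members, as of all genes, with 7 at an unadjusted p under 0.05; DESeq2 called 1), and the smallest adjusted p was that of Cyp6a8 (log2 1.24, SE 0.30, edgeR adjusted p = 0.0732). It was called when replicate 3 on food without DMSO or replicate 2 on 0.1% at 4 h was left out, 1 member in each case. In males 2 of 74 were lower (2.70%, against 0.451% of all genes, with 0.957% called in either direction), Cyp4e3 (log2 -2.76, SE 0.61) and Cyp6a9 (log2 -0.87, SE 0.18). Without replicate 1 on 0.1, 0.2 or 0.4% at 0 h only Cyp6a9 was called, and without replicate 2 on 0.1% or 0.4% or replicate 1 on 0.2% at 4 h there were 4, 4 and 5.

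After 8 h in females 6 of 76 members were called (7.89%, against 3.59% of all genes), 2 higher (against 0.497%) and 4 lower (against 3.09%). The split was 4 and 4 with median-of-ratios scaling and 4 and 5 with the ribosomal RNA genes left out. Of 76 members 60 had a negative log2 change, with a median of -0.47 against 0.00 over all genes. Cyp4d1 fell to a median of 0.641 CPM (0 to 17.2; log2 -3.33, SE 0.82). Cyp4e3 fell from 0.601 to 58.9 CPM (median 2.73) to 0.638 to 5.47 (median 1.499; log2 -2.51, SE 0.66). Cyp4s3 fell by 1.19 on the log2 scale (SE 0.29) and Cyp6a9 by 0.98 (SE 0.28). Cyp4ac2 rose from 1.20 to 7.03 CPM (median 2.57) to 2.70 to 11.9 (median 7.89; log2 1.06, SE 0.31), and Cyp4d21 from a median of 3.98 to 7.41 CPM (log2 1.28, SE 0.37). All 6 adjusted p-values lay between 0.0235 and 0.0477 in edgeR's test, so the count moved with single libraries. It was 0 without replicate 1 on food without DMSO or replicate 2 on 0.1% at 8 h and 1 without replicate 2 on 0.2% at 8 h. It was 2 without replicate 1 on 0 or 0.1% or 2 on 0.2% at 0 h, or replicate 1 on 0.1 or 0.2% at 8 h. It was 3 without replicate 3 on 0.2% or 1 or 3 on 0.4% at 0 h, and 10 without replicate 3 on 0.2% or 1 on 0.4% at 8 h. Without the doubted libraries 1 member, Cyp4s3, was called (log2 -1.39), and Cyp4d21 was at log2 0.69.

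Males after 8 h had 8 of 74 members called (10.8%, against 11.3% of all genes), 6 higher (8.11%, against 6.95%) and 2 lower (2.70%, against 4.38%). Cyp4e3 was again the lowest, at 1.41 to 5.66 CPM (median 3.05) after 2.12 to 102 (median 13.9) in the fasted males (log2 -3.68, SE 0.65, edgeR adjusted p = 0.000307). Cyp312a1 fell from 228 to 453 CPM (median 317) to 66.6 to 362 (median 178; log2 -0.82, SE 0.20). Cyp4d21 rose from 45.1 to 92.5 CPM (median 77.6) to 76.3 to 212 (median 124; log2 0.94, SE 0.18, edgeR adjusted p = 0.000679). Cyp313a1 rose from 60.1 to 153 CPM (median 91.8) to 123 to 299 (median 162; log2 0.80, SE 0.21). Cyp4ac2 rose from 3.00 to 8.12 CPM (median 7.12) to 7.56 to 13.1 (median 11.6; log2 0.80, SE 0.26) and Cyp6a8 from a median of 83.6 to 126 CPM (log2 0.81, SE 0.23). Cyp12b2 (log2 0.47, SE 0.13) and Cyp305a1 (0.37, SE 0.11) rose by less. Cyp4e3, Cyp4d21, Cyp312a1 and Cyp313a1 passed whichever single library was left out. The count was 5 without replicate 1 on 0.2% at 0 h, 4 without replicate 2 on 0.4% at 8 h and 13 without replicate 1 on 0.4% at 8 h. In the same males 5 of 12 male markers rose, among them the seminal fluid gene Acp26Aa (log2 0.91), and the summed level of the 12 over all 4 foods ran from 9422 to 13588 CPM at 0 h and from 10059 to 16596 at 8 h. Their part in the rise of male-higher members was not tested.

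Across the sexes, Cyp4e3 fell and Cyp4ac2 and Cyp4d21 rose at 8 h in both, the calls being 1 of 4 falling in females and of 2 in males, and 2 of 2 rising in females and of 6 in males. Of the 3 neighbouring Cyp4ac genes on 2L, Cyp4ac3 was lower at 2 h and Cyp4ac2 higher at 8 h in both sexes. The overlap of calls between the sexes was not counted over all genes, so these shared calls are not read as particular to the members. Without the female library that held male transcripts and the fasted female replicate 1, Cyp4e3, Cyp4d21 and Cyp4ac2 were not called in females at 8 h. Cyp4d21 and Cyp4ac2 were then at log2 0.69 and 1.17. A test of the difference between the sexes in the change from 0 to 2 h, over the 3 foods with DMSO, called no member (0% of 76, against 0.00766% of all genes, with 8 at an unadjusted p under 0.05; DESeq2 called 3), nor did that from 0 to 8 h (0%, against 0.0459% of all genes, 0.0383% higher in females, with 5 unadjusted; DESeq2 called 0). For Cyp4e3, which fell at 2 h in males and was at log2 -0.71 (SE 0.60, edgeR adjusted p = 0.455) in females over all 4 foods, the difference, female minus male, was log2 2.75 (SE 0.93, edgeR adjusted p = 0.307). At 8 h Cyp312a1 had the smallest p (log2 1.54, SE 0.54, edgeR adjusted p = 0.325), and it was called, as 1 member, when the female library on 0.4% DMSO, replicate 2, was left out. The females at 8 h include the library that held male transcripts, with 53.7 CPM against 0 to 3.15 in the other 8. Without the doubted libraries the difference was log2 0.43 (edgeR adjusted p = 0.99996). The median standard error of these differences over the members was 0.41 at 2 h and 0.43 at 8 h on the log2 scale.

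**Figure D3:**
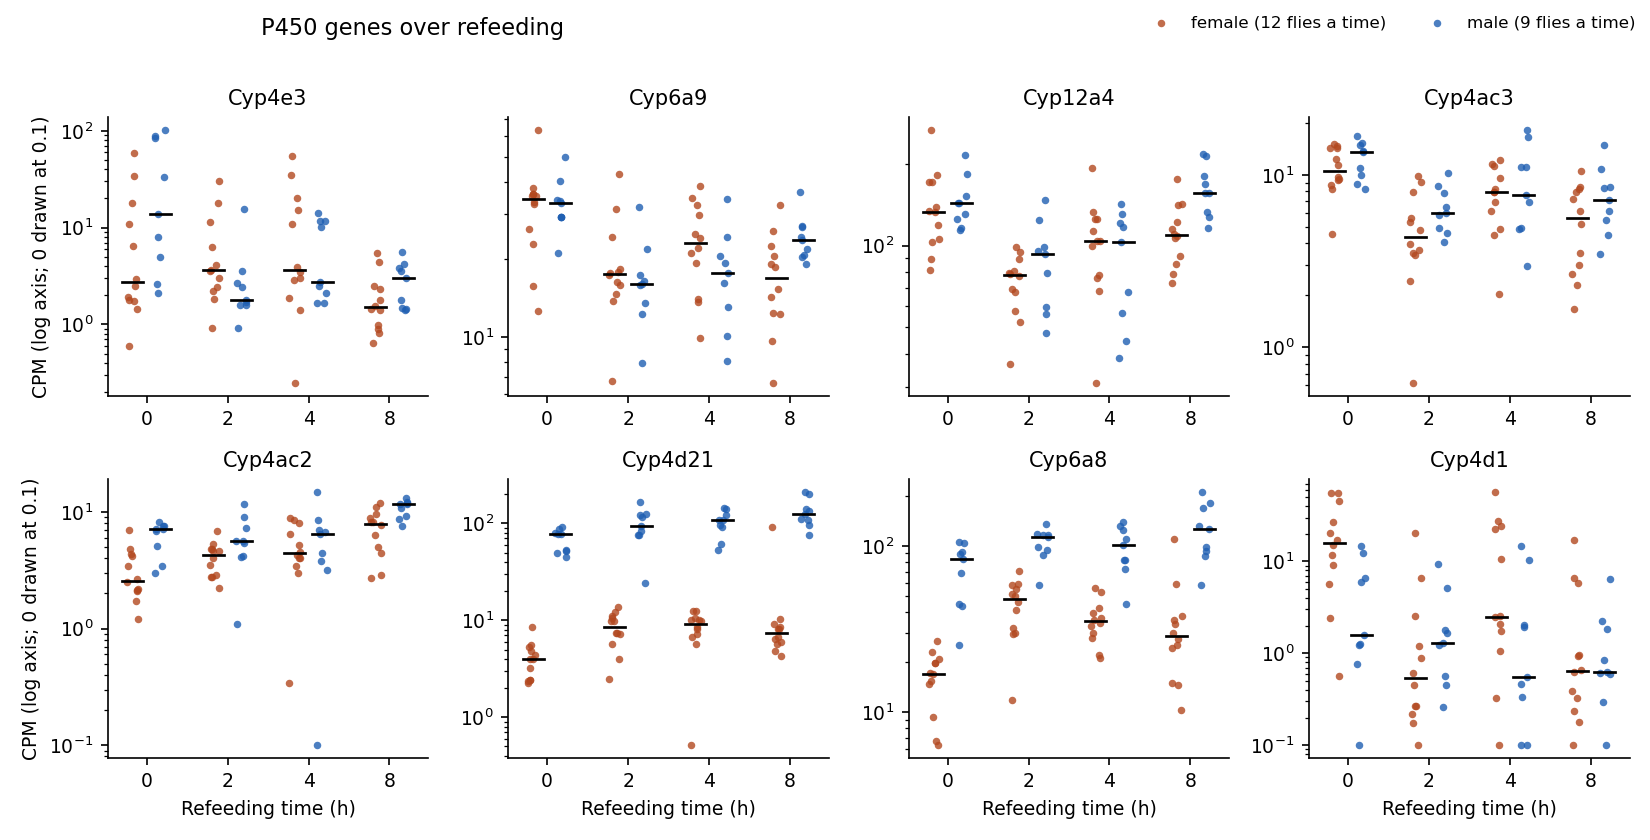
CPM on log axes against refeeding time for 8 members, 1 point per fly with the median as a bar (12 females a time on 4 foods, 9 males a time on the 3 foods with DMSO; 0 drawn at 0.1). Cyp4e3 spreads widely at 0 h and is low at 8 h (at most 5.47 CPM in females and 5.66 in males), Cyp4ac2 is higher at 8 h in both sexes, and the sexes lie far apart in Cyp4d21.

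Cyp4g1 itself was not called at any time in either sex. Its median in females was 4117, 4786, 3625 and 1257 CPM at 0, 2, 4 and 8 h, and in males 7110, 6650, 5226 and 3173. At 8 h the change was log2 -1.57 (SE 0.53, edgeR adjusted p = 0.0833) in females and -0.85 (SE 0.35, edgeR adjusted p = 0.114) in males. Its range over 12 females at 8 h, 222 to 5499 CPM, overlapped with 1119 to 7524 at 0 h. The summed level of all other P450 genes had a median of 2022 CPM at 0 h and 1850 at 8 h in females, and 2949 and 2847 in males, so the share of Cyp4g1 went from 65.4 to 37.0% of the P450 CPM in females and from 71.3 to 52.8% in males. Beside it, the oenocyte markers Desat1 (log2 -0.55) and FASN2 (log2 -1.07) fell in males at 8 h, 2 of 2 tested, and 1 of 3, Desat1 (log2 -0.73), in females, with FASN2 at log2 -1.35 and Fad2 at -1.74 not called. The sum of these 3 markers had a median of 1198 CPM at 0 h and 564 at 8 h in females, and 896 and 550 in males. Single flies at 4 h had little Cyp4g1, with 67.7 CPM in the female on 0.2% DMSO, replicate 3, and 158 in the shallowest male library. Of 6 electron partners none was called at 8 h in either sex, and Cpr was at log2 -0.65 in females and -0.48 in males.

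**Figure D4:**
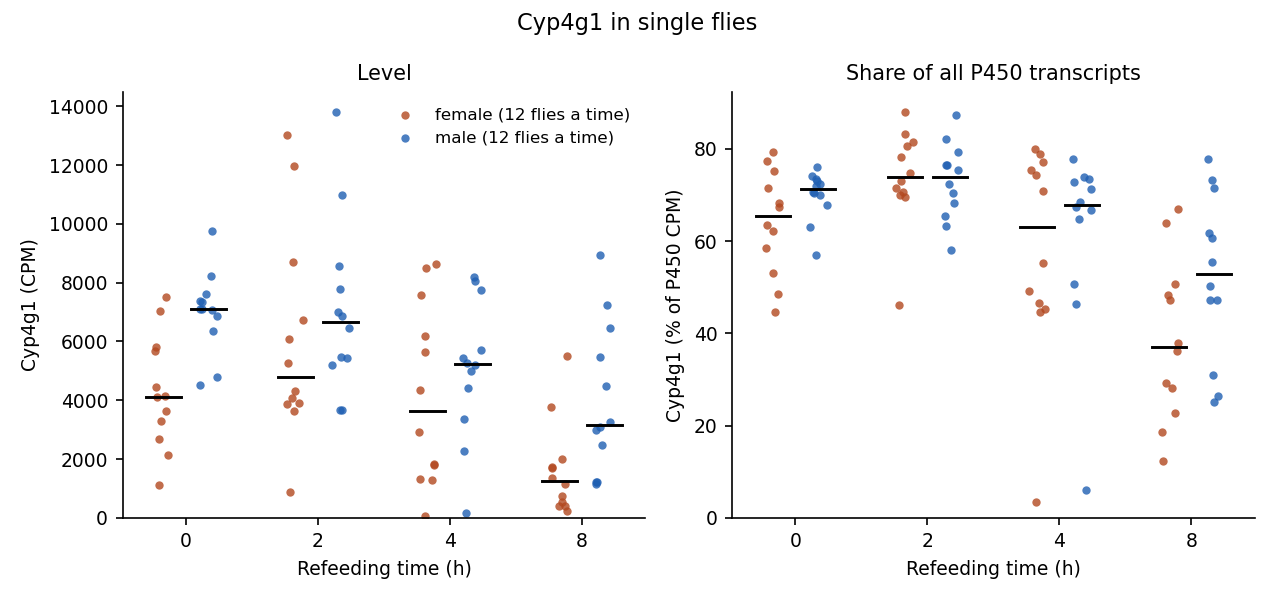
Cyp4g1 in single flies against refeeding time, 12 females and 12 males a time, as CPM (left) and as a percentage of the CPM of all 84 P450 genes (right), with medians as bars. The median share is 37.0% in females and 52.8% in males at 8 h, against 65.4 and 71.3% at 0 h, and 2 flies at 4 h lie under 10%.

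DMSO in the food was the treatment of the study. Over 2, 4 and 8 h, no P450 gene was called in fed females on 0.4% DMSO against none (9 flies against 9; 0% of 76 members, against 0.00994% of all genes, with 3 at an unadjusted p under 0.05; DESeq2 called 0). In fed males, where the food without DMSO was partly on another sequencing run, 0.4% was set against 0.1%, and no member was called (0% of 74, as of all genes, with 5 unadjusted; DESeq2 called 0). None of the genes known to respond to foreign compounds was among those with an adjusted p under 0.05. In females Cyp6a2 was at log2 0.08 (SE 0.34), Cyp6a8 at 0.57 (SE 0.34), Cyp6g1 at 0.16 (SE 0.43), Cyp6w1 at 0.12 (SE 0.24), Cyp28d1 at -0.01 (SE 0.28) and Cyp12d1-p at 1.14 (SE 1.04). The group on 0.4% holds the library with male transcripts, which had 110 CPM of Cyp6a8 against 33.8 and 10.2 in the other flies of its group, and without the doubted libraries Cyp6a8 was at 0.16 and Cyp6a2 at -0.16. In males Cyp6a2 was at -0.09 (SE 0.17), Cyp6a8 at -0.00 (SE 0.23), Cyp6g1 at -0.28 (SE 0.21), Cyp6w1 at 0.05 (SE 0.14), Cyp28d1 at -0.17 (SE 0.18) and Cyp12d1-p at -1.19 (SE 0.78). The median standard error over the members was 0.39 in females and 0.20 in males, which limits the change on the log2 scale that these flies could show.

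At 8 h the 3 DMSO levels together were set against none (9 flies against 3, a test of any difference). In males, all on one run, no member was called (0%, against 0.00791% of all genes, with 14 unadjusted; DESeq2 called 0). Cyp28c1 had the smallest p, at 35.3, 53.3 and 23.1 CPM in the 3 flies without DMSO, 27.5, 33.4 and 28.4 on 0.1%, 22.5, 18.5 and 18.4 on 0.2% and 18.6, 21.2 and 22.0 on 0.4% (edgeR adjusted p = 0.345). It was called, as 1 member, when replicate 2 on 0.1% was left out. The flies without DMSO were higher than those on 0.2 and 0.4% and overlapped with those on 0.1%.

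In females 2 of 76 members were called at 8 h (2.63%, against 0.954% of all genes), Cyp28c1 and Cyp312a1, both of them male-higher genes. Cyp28c1 measured 0.818, 0.5997 and 0.413 CPM without DMSO, 0.319, 0.931 and 1.83 on 0.1%, 0.663, 0.180 and 0.703 on 0.2% and 1.72, 0.828 and 12.1 on 0.4%. Cyp312a1 measured 0.981, 1.20 and 1.86 CPM without DMSO, 1.59, 1.86 and 1.83 on 0.1%, 0.995, 1.99 and 2.81 on 0.2% and 3.15, 0 and 53.7 on 0.4%. In both the high value was that of the library that held male transcripts, and without it 0 members were called. The count was 1 without replicate 2 on 0.2% or replicate 1 without DMSO. That library was the highest of 48 females for 10 of the 23 male-higher members, 0 of the 11 female-higher and 1 of the 38 members not called between the sexes. The male-higher and female-higher members include those that passed the filter on low counts through 1 sex.

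**Figure D5:**
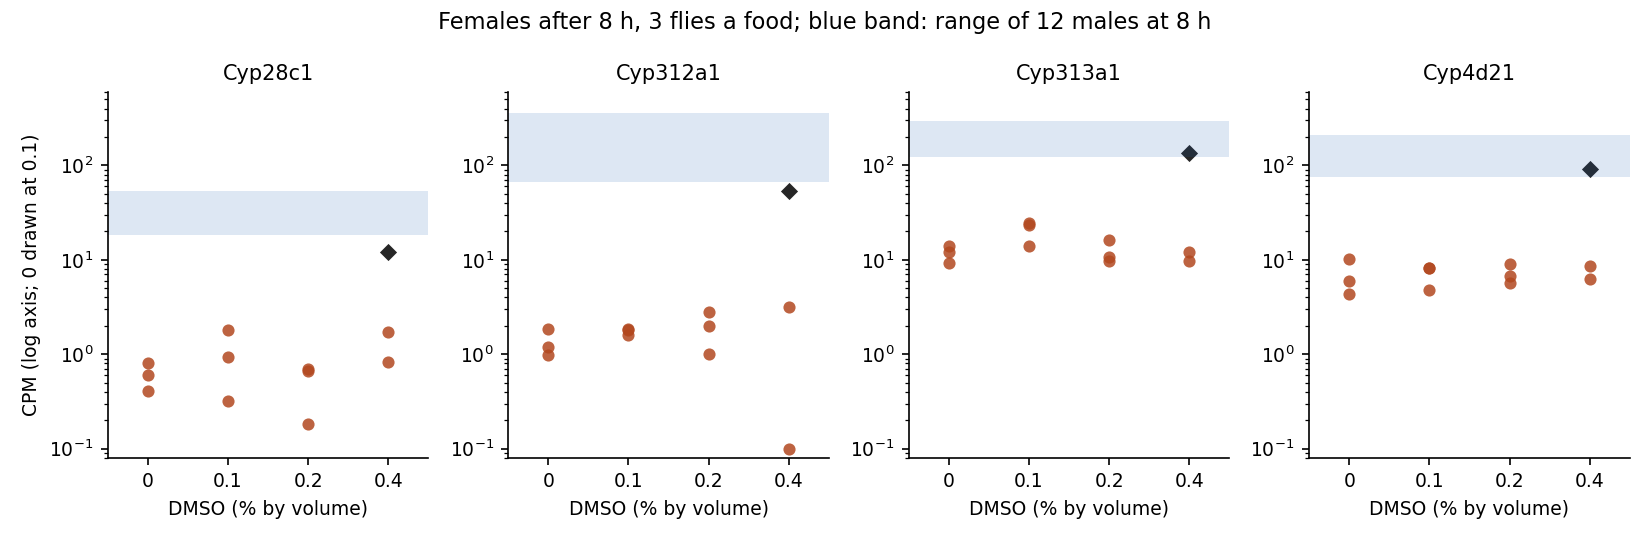
CPM on log axes of 4 male-higher members in females after 8 h, against the DMSO level, 3 flies a food; the black diamond is the library labelled female that held male transcripts and the blue band the range of the 12 males at 8 h (0 drawn at 0.1). The other 11 females lie at or under 24.7 CPM, and the diamond lies below the male range in Cyp28c1 and Cyp312a1 (12.1 and 53.7 CPM) and inside it in Cyp313a1 and Cyp4d21 (136 and 92.1 CPM).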

How the data were processed

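RNA of single flies was sequenced as stranded poly(A)+ libraries, prepared after mixing with RNA of 2 other insects, per the labels' protocols. The authors deposited read counts per gene for each library; the submitters' processing notes name CASAVA 1.8.2, bcl2fastq 1.8, TopHat2 2.1.0, STAR 2.4.2a and HTSeq 0.6.1p1, and none of the sources read here names the genome build. Spike-in rows (96) and summary rows (5, holding 8.75 to 23.5% of the counts) were left out. The spike-in rows took 1.54 to 5.14% of all counts in the 0 h libraries and 0.155 to 0.962% in the fed ones. No scaling used them, so changes with refeeding are relative to the other genes of a library and not amounts per fly. The cause of this gap was not tested. Counts were tested with edgeR 4.0.16 (R 4.3.3, limma 3.58.1) by the quasi-likelihood test after TMM scaling and edgeR's filter on low counts, over 10060 genes in females, 12644 in males, 12069 between the sexes and 13061 over all libraries. P-values were adjusted by Benjamini-Hochberg over all genes tested, with calls under 0.05. A standard error (SE) is the log2 change divided by the root of F. CPM values use 1 TMM scaling over all 96 libraries; 3 counts correspond to 0.326 to 3.13 CPM, and intervals cover counting error only. Exon lengths, chromosomes and neighbours come from Ensembl BDGP6.54. DESeq2 1.42.0 and the settings of the closing section were alternatives. On simulated data with 100 genes changed by 1 or 2 on the log2 scale, 70 and 92% were recovered for females at 2 h, 79 and 96% for males at 8 h and 56 and 92% between the sexes. The changed genes were drawn from all genes tested. The members varied more, with median coefficients of variation of 0.516 against 0.298 in females, 0.262 against 0.194 in males and 0.284 against 0.249 between the sexes. Recovery among the members was not measured and may be lower.

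Named were all called members where 20 or fewer, otherwise the 10 largest in each direction, the 5 with the smallest p where none was called, and members of known role. The P450 members and gene lists were chosen with earlier results of these data known. Of 85 matching symbols 84 had a row. No replicate pair was identical. Flies are separate animals. One male library has 0 h in its title and 8 h in another label and was kept at 0 h. Its spike-in share was 3.59%, within the range of the other 0 h libraries and above every fed library (at most 0.962%).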

Additional observations from a re-analysis of the deposited data

Results flagged for a closer look

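Among 40 sets of 6 flies, 6 held a fly far from the other 5 (a gap to the nearest over 0.625 of the range). This limit flags about 1 in 20 independent sets of normal values. The sets share flies and their genes were named from these same data, so no comparison with that rate is drawn. In 4 of the 6 sets the outlying fly was the fasted female on food without DMSO, replicate 1. It had 60.7 CPM of Cyp6d4 (the other 5 females at 4.43 to 13.05), 44.4 of Cyp9b1 (3.36 to 9.49), 376 of Cyp12c1 (14.2 to 37.6) and 12.8 of Cyp28d2 (2.63 to 5.12). The fasted male replicate 2 had 8.86 CPM of Cyp9b1, against 1.77 to 4.15 in the other males. The female at 2 h, replicate 1, had 22.5 CPM of Cyp305a1, against 9.29 to 14.2 in the other females.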

How the results depend on the processing

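Numbers of P450 genes called are given as with the reported settings and then under another one. Between the sexes 34 of 72 were called, 30 to 37 without 1 library and 56 of 76 over all 96 libraries (15 female-higher, 41 male-higher). Over all 96 libraries sex is largely confounded with sequencing run, since most males were on another run than the females. Over all genes 7949 of 12069 were called, and 11623 of 13061 with all 96 libraries. In females, the food without DMSO alone (3 flies against 3) gave 0 calls at 2 h and 0 at 8 h, in place of 10 and 6, and reversed Cyp12b2 at 4 h (log2 -0.015) and Cyp4ac2 at 8 h (log2 -0.16), neither of them called there. The 3 foods with DMSO alone gave 3 calls at 2 h (2 higher, 1 lower), 1 at 4 h and 0 at 8 h. DESeq2 called 13 members at 2 h, 1 at 4 h and 13 at 8 h. In males, all 4 foods gave 9 calls at 2 h in place of 5 and 5 at 4 h in place of 2. DESeq2 called 3 members for the sex difference in the 2 h change, where edgeR called 0. Leaving out each library in turn gave 5 to 14 calls at 2 h, 0 to 1 at 4 h and 0 to 10 at 8 h in females, and 3 to 5, 1 to 5 and 4 to 13 in males. It gave 0 to 3 for any DMSO in females at 8 h, 0 to 1 in males at 8 h, and 0 to 1 for the sex difference in the 8 h change. For the sex differences in the 2 h and 8 h changes, 12 of 54 libraries were drawn at random, of which 9 and 8 enter the respective change, and the others were not run. Replicate numbers did not pair the flies (mean correlation of same-numbered deviations -0.024 in females and -0.0097 in males). With the replicate number as a block, 2 members were called in females at 8 h, 0 for any DMSO in females at 8 h, and 1 in males at 4 h. The respective counts over all genes were 247, 53 and 97. Without the doubted libraries, a setting chosen after seeing the data, females had 8 calls at 2 h (4 higher, 4 lower), 1 at 8 h and 0 for any DMSO. All genes gave 1226, 85 and 0 there. The other counts, under median-of-ratios scaling, no filter on low counts or ribosomal RNA genes left out among others, stayed within 1.5 times those reported. For single named genes, 482 values under other settings stayed on their side of the threshold, 59 lost the call, 5 gained it, 2 reversed and 7 had no adjusted p from DESeq2. Except where fewer flies were tested, the cause was not tested. Depth limits the low genes, since 3 counts stand for 0.326 to 3.13 CPM.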
